A study of Homo sapiens with 6 samples.

Results

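The small ribosomal subunit genes described here are 28 genes, taken as every row of the deposited transcript table whose symbol equals a member name, with the FPKM of a symbol's rows summed in each library. They hold 234 of 116485 annotated transcripts and are 28 of 29236 gene symbols. Not every protein of the subunit is among them. FPKM is fragments per kilobase of transcript per 1000000 reads, so levels are per length and can be compared between genes. The samples are xenografts of HT-29, an established human colorectal cancer line grown in a host animal, with the genotype labelled WT in all 6 samples. The 3 ESV xenografts received 60 mJ extracorporeal shock waves, pressure pulses applied from outside the body, and the 3 control xenografts were untreated. RNA of both groups was taken at day 15, and 1 batch value is shared by all samples. The titles of the ESV samples also carry "con", and the groups follow the treatment label. Separate animals are not named for the samples of a group, so the p-values cover the spread among these 6 samples, which may be technical.

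The small subunit binds the messenger RNA, scans it for a start codon and holds the decoding site, where tRNA is matched to the codon. Its proteins are made in step with one another, are built onto ribosomal RNA in the nucleolus, and are degraded when made in excess. Messages of most ribosomal protein genes begin with a C followed by a run of pyrimidines, the terminal oligopyrimidine (TOP) tract, through which their translation answers to mTORC1, and rapidly growing tumour cells use them at high levels.

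The sequences at the transcription starts are shown because this tract is what most of these genes share in sequence. A script searched RefSeq promoter entries on build GRCh38.p14, on the sense strand only, for a C followed by at least 4 further C or T bases, beginning within 5 bases of the annotated start. Of the 28 genes, 25 had an entry, and 21 of those 25 (84%) held such a tract. Among all 35116 promoter entries of the table, 7408 (21.1%) held one, against 22 of the 28 entries of these genes. RPS15, RPS26, RPS27L and RPS29 had an entry without a match. RPS2, RPS15A and RPS20 had no entry. Each line gives 10 bases before the start and 20 from it onward, with the tract in capitals. RPS14, RPS16, RPS18, RPS21 and RPS24 are abundant members with long tracts, RPS6 is the gene whose transcripts were exchanged most fully, and RPS27 and RPS27L are paralogs with and without a match.
RPS14: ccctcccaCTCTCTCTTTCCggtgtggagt
RPS16: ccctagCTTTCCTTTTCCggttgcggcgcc
RPS18: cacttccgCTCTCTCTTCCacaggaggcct
RPS21: ctagctgCTTCCTTTCTCTCTCgcgcgcgg
RPS24: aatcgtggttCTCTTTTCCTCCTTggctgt
RPS6: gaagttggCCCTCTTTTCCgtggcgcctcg
RPS27: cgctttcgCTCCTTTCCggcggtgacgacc
RPS27L: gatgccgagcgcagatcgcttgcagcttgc
The windows are chr5:150449720-150449749 for RPS14 (minus strand), chr19:39435930-39435959 for RPS16 (minus strand), chr6:33272065-33272094 for RPS18 (plus strand), chr20:62387093-62387122 for RPS21 (plus strand), chr10:78033853-78033882 for RPS24 (plus strand), chr9:19380217-19380246 for RPS6 (minus strand), chr1:153990752-153990781 for RPS27 (plus strand) and chr15:63157458-63157487 for RPS27L (minus strand). RPS21 had the longest of these runs, at 15 bases, and RPS24 had 14. A match describes these letters and says nothing of how the gene is controlled.

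Library totals recovered from the values were 55200000 to 58540000 reads in ESV and 48300000 to 55490000 in controls. The labelled colorectal origin was checked on 13 colorectal epithelium markers, all of which passed the filter, and their summed level was 6860 to 9109 FPKM in ESV and 6465 to 7550 in controls. Of markers of other cells, 6 fibroblast genes summed to 3.13 to 12.9 FPKM in ESV and 8.27 to 24.98 in controls. The 5 endothelial genes summed to at most 0.755 FPKM in ESV and 0.670 in controls. The 4 erythroid genes summed to at most 0.856 FPKM in ESV and 0.75 in controls. The 5 leukocyte genes summed to 1982 to 2085 FPKM in ESV and 1845 to 2083 in controls, nearly all of it LYZ, which gut epithelium can also make. Of 38 listed markers, 33 were analysed here, and none of these was at 0 in every library. The markers are human genes, so cells of the host animal may be missed, and low values do not show that such cells were absent. Whether reads of the host were counted in the members was not tested. In bulk tissue, fewer cells of a type and less RNA per cell cannot be told apart. The values of ESV xenograft 3 are given separately throughout, as the rule for these genes set. ESV xenograft 3 stood apart from the other libraries over all tested genes, not in the members alone. Its median absolute log2 difference from each other library was 0.33 to 0.42 over tested genes. Between any other pair of libraries it was 0.17 to 0.25.

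As a group, these genes were highest in ESV xenograft 3, while ESV xenografts 1 and 2 lay on either side of the controls. Their summed level was 21985, 18715 and 35954 FPKM in ESV xenografts 1, 2 and 3, against 18979, 19559 and 19074 FPKM in controls 1, 2 and 3. ESV xenograft 3 lay far above the others, ESV xenograft 1 lay above every control and ESV xenograft 2 below every control, so the groups overlapped. The sum in ESV xenograft 3 was 1.87 times the control mean, against 1.14 and 0.975 times in ESV xenografts 1 and 2. It was 1.34 times with quantile normalization and 1.48 times with the length trend removed. The group means were 25552 ± 9156 FPKM in ESV and 19204 ± 311 FPKM in controls (SD, n = 3 each), and ESV xenografts 1 and 2 alone averaged 20350 FPKM. As a share of all annotated FPKM the members held 4.80%, 4.35% and 6.97% in ESV, against 4.46%, 4.54% and 4.38% in controls.

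Read numbers in place of length-scaled levels gave narrowly separate groups with all members included. The members held 21482, 19207 and 33003 recovered reads per 1000000 reads on annotated transcripts in ESV, against 18524, 19062 and 18159 in controls. ESV xenograft 3 was again the highest, at 1.78 times the control mean, and ESV xenograft 2 lay just above control 2, so that no control reached an ESV value on this scale. RPS2 and RPS10 varied most among the controls, and without this pair the sums were 19098, 16478 and 30967 FPKM in ESV, against 16865, 17546 and 17838 FPKM in controls. ESV xenograft 3 was then 1.78 times the control mean. In reads too the pair was low in some controls. RPS2 had 2185, 2186 and 461 reads per 1000000 in controls 1, 2 and 3, and RPS10 had 112, 94.0 and 806. In ESV xenograft 2, the ESV library nearest the controls, RPS2 had 2048 and RPS10 had 704. The narrow separation in reads includes these values, and sums of reads without the pair were not taken. It is therefore not shown to hold for the other members.

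**Figure D1:**
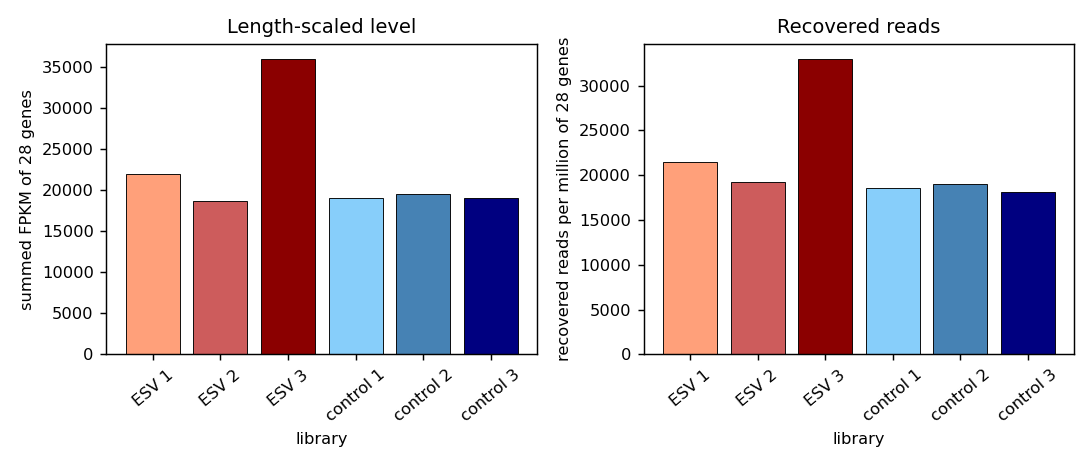
Summed level of the 28 genes in each library, as FPKM (left) and as recovered reads per 1000000 (right), with the 3 ESV xenografts left of the 3 controls and 1 bar per library. ESV xenograft 3 stands at 35954 FPKM and 33003 reads per 1000000, and the other 5 libraries lie between 18715 and 21985 FPKM.

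All 28 genes reached 1 FPKM in 3 or more libraries, the filter used, as did 13448 genes in all. None of the 28 differed between ESV and control in limma's test with Benjamini-Hochberg adjustment over all genes at 0.05, and none of the 13448 did (0%). At an unadjusted p under 0.05 limma had 1 member, RPS29, on the higher side, against 426 genes (3.17%) of all tested, and 0 members on the lower side, against 506 (3.76%). Limma voom on recovered reads had 0 of 28 members past the adjusted threshold, against 2 of 14626 genes (0.0137%), and 0 members at an unadjusted p under 0.05, against 873 genes (5.97%). The log2 change, on the log2(FPKM + 1) scale, was positive in 24 members and negative in RPS3, RPS3A, RPS6 and RPS25, while 48.4% of all tested genes were positive. Its median was 0.32 over the members and -0.01 over all tested genes. The members' adjusted p ran from 0.648 to 0.995 and their SE from 0.16 to 0.85.

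In size, though less in sign, the positive changes rested largely on ESV xenograft 3. It was the highest of the 6 libraries for 24 members, against 25% of all tested genes, and it lay above all controls for the same number, against 32.2%. The median member difference from the control mean was 0.18, -0.03 and 0.90 (log2) in ESV xenografts 1, 2 and 3, and the quartiles of the members lay at 0.70 and 1.10 in ESV xenograft 3. ESV xenograft 1 lay above all controls for 19 members, against 33% of all tested genes. ESV xenograft 2 did so for 4 members, against 24.6%, and lay below all controls for 8, against 26.5%. Without ESV xenograft 3 the median change was 0.06, and 22 members were positive, against 52.1% of all tested genes. Without ESV xenograft 2 the median change was 0.53, and 26 members were positive, against 48.8%. No member passed in either fit.

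Only RPS7, RPS28, RPS29 and FAU were higher in every ESV xenograft than in every control, 4 of 28 members against 7.75% of all tested genes. No member was lower in every ESV xenograft, against 8.69%. ESV xenografts 1 and 2 without the third lay above all controls for these 4 members by definition, and for no further member, against 12.2% of tested genes. They lay below all controls for 0 members, against 11%. In recovered reads per 1000000 the separated members were RPS27L and FAU, 2 of 28 against 8.04%, so FAU was the member separated on both scales. None was lower in every ESV xenograft in reads, against 8.24%, and ESV xenograft 3 was the highest for 25 members, against 23.3%.

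**Figure D2:**
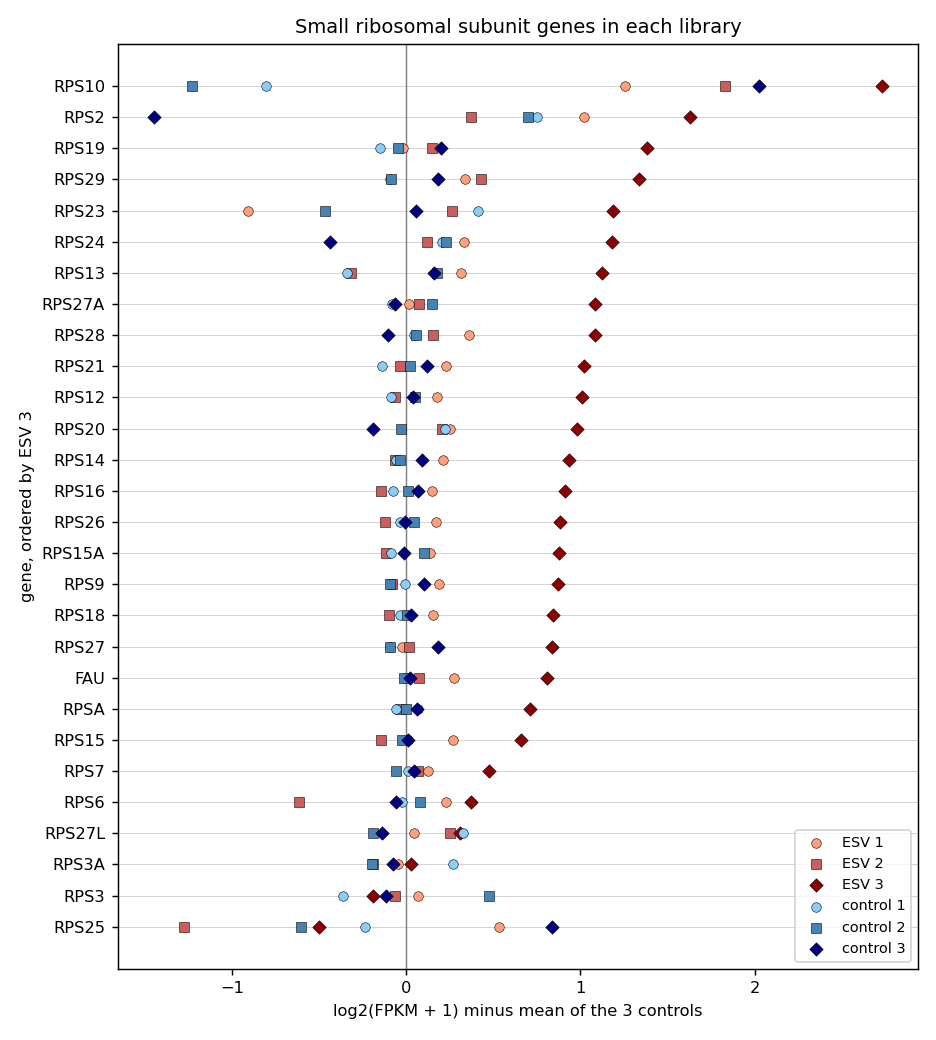
Difference of log2(FPKM + 1) from the mean of the 3 controls for each of the 28 genes (rows, ordered by ESV xenograft 3), with 1 point per library. Dark red diamonds, ESV xenograft 3, lie to the right of every other library in 24 rows, while 24 of the 56 points of ESV xenografts 1 and 2 lie within the control range.

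The slope of level on transcript length was most negative in ESV xenograft 3. The slope of log2 level on length, per doubling of the leading transcript and relative to the mean library, was -0.04, 0.03 and -0.15 in ESV xenografts 1, 2 and 3, against 0.06, 0.06 and 0.04 in controls. The members are short, with a median leading transcript of 742 bases against 2445 over tested genes, and 21 of the 28 were under 1000 bases. In ESV xenograft 3 the 2403 tested genes under 1000 bases had a median difference from the control mean of 0.25 (log2), all tested genes had -0.06, and the members had 0.90. Among the 28 members, the Spearman correlation of the ESV xenograft 3 difference with leading transcript length was -0.17, a description over genes of 1 library, and the part of length in the member values was not tested. With the length trend removed from each library the median member change was 0.15, and with quantile normalization it was 0.10, with 22 and 20 members positive.

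RPS18 and RPS2, near the decoding site and the message channel, were the 2 most abundant members. RPS18, at the head of the subunit and in contact with the large subunit, had 2147, 1803 and 3462 FPKM in ESV xenografts 1, 2 and 3, against 1881, 1939 and 1967 FPKM in controls 1, 2 and 3. ESV xenograft 3 was the highest and ESV xenograft 2 the lowest, so the groups overlapped. Means were 2471 ± 876 FPKM in ESV and 1929 ± 43.8 FPKM in controls (SD, n = 3 each), giving a log2 change of 0.30 (SE 0.27, adjusted p = 0.697). RPS16, whose tail reaches the peptidyl tRNA, had 1300.2, 1062 and 2209 FPKM in ESV, against 1115, 1181 and 1231 FPKM in controls. RPS14, on the platform of the subunit, had 1274, 1052 and 2106 FPKM in ESV, against 1056, 1075 and 1173 FPKM in controls. RPS18, RPS16 and RPS14 shared the order of the libraries at both ends, with ESV xenograft 3 first, at 1.79, 1.88 and 1.91 times the control mean, ESV xenograft 1 next and ESV xenograft 2 the lowest.

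RPS2 (ENSG00000140988, chr16:1962052-1964860, minus strand), which lines the channel where the message enters, had 2421, 1539 and 3685 FPKM in ESV xenografts 1, 2 and 3, against 2003, 1929.9 and 436 FPKM in controls 1, 2 and 3. Control 3 was the lowest of all, while controls 1 and 2 lay between ESV xenografts 1 and 2. Means were 2548 ± 1079 FPKM in ESV and 1456 ± 884 FPKM in controls (SD, n = 3 each), and the log2 change of 1.01 (SE 0.64, adjusted p = 0.648) came with a control SD of 1.25 on the log2 scale. Without control 3 the RPS2 change was 0.28. RPS3, another entry channel protein, had 828, 755 and 693 FPKM in ESV, against 615, 1101 and 729.6 FPKM in controls. RPS9, a neighbour of RPS2 in the body of the subunit, had 1272, 1055 and 2038 FPKM in ESV, against 1109, 1044 and 1195 FPKM in controls. RPS3 was highest in control 2 and did not stand out in ESV xenograft 3, at 0.850 times the control mean, while RPS9 was 1.83 times there.

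RPS23, which reaches into the decoding centre, had 209, 471 and 892 FPKM in ESV xenografts 1, 2 and 3, against 521, 284 and 407 FPKM in controls 1, 2 and 3. ESV xenograft 1 was the lowest and ESV xenograft 3 the highest, so the ESV values spanned those of the controls. RPS15, a head protein close to the decoding site, had 297, 223 and 389.9 FPKM in ESV, against 249, 243 and 248 FPKM in controls. Controls were within a few FPKM of each other for RPS15, and ESV values lay on both sides of them.

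Members of the message exit side and platform were RPS26, RPS28, RPSA, RPS3A and RPS13. RPS28 (ENSG00000233927, chr19:8321158-8323340, plus strand) had 181, 157 and 300.0 FPKM in ESV xenografts 1, 2 and 3, against 146, 147 and 131 FPKM in controls 1, 2 and 3. Every ESV value lay above every control. Means were 213 ± 76.6 FPKM in ESV and 141 ± 8.77 FPKM in controls (SD, n = 3 each), a log2 change of 0.53 (SE 0.24, adjusted p = 0.648), and the FPKM of ESV xenografts 1 and 2 were 1.28 and 1.11 times the control mean, against 2.13 times in ESV xenograft 3. In recovered reads per 1000000 RPS28 had 275, 215 and 446 in ESV, against 226, 226 and 197 in controls, and these overlapped. RPS26, mutated in some patients with Diamond-Blackfan anaemia, had 626, 511 and 1029 FPKM in ESV, against 543, 574 and 554 FPKM in controls. ESV xenograft 3 was 1.85 times the control mean, and ESV xenograft 2 lay below all controls.

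RPSA, first known as the precursor of a laminin receptor, had 497, 463 and 776 FPKM in ESV xenografts 1, 2 and 3, against 455, 474 and 495 FPKM in controls 1, 2 and 3. Only ESV xenograft 3 lay clear of the controls, and the log2 change of 0.25 (SE 0.21, adjusted p = 0.691) did not pass. RPS3A, which contacts initiation factor eIF3, had 882, 799 and 929 FPKM in ESV, against 1097, 795 and 864 FPKM in controls. Control 1 was its highest library and ESV xenograft 3 stood at 1.01 times the control mean. RPS13 had 622, 401 and 1090.2 FPKM in ESV, against 396, 565 and 559 FPKM in controls. RPS13 was highest in ESV xenograft 3 and lowest in control 1, close to ESV xenograft 2.

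RPS6 (ENSG00000137154, chr9:19375715-19380254, minus strand) is the subunit protein phosphorylated by S6 kinase downstream of mTORC1. It had 1146, 639 and 1271 FPKM in ESV xenografts 1, 2 and 3, against 963, 1037 and 943 FPKM in controls 1, 2 and 3. ESV xenograft 2 was the lowest and ESV xenograft 3 the highest, with the controls between them. Means were 1019 ± 335 FPKM in ESV and 981 ± 49.5 FPKM in controls (SD, n = 3 each), a log2 change of -0.0052 (SE 0.27, adjusted p = 0.995). In recovered reads per 1000000 RPS6 had 1186, 984 and 1896 in ESV, against 994, 1078 and 993 in controls, so that ESV xenograft 3 was 1.86 times the control mean in reads but 1.30 times in FPKM.

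FAU and RPS27A encode a ubiquitin-like protein and ubiquitin, each fused to a ribosomal protein that is released by cleavage. FAU (ENSG00000149806, chr11:65120628-65122473, minus strand) had 375, 325 and 541 FPKM in ESV xenografts 1, 2 and 3, against 308, 306 and 314 FPKM in controls 1, 2 and 3. All ESV values lay above all controls, and the controls differed little. Means were 414 ± 113 FPKM in ESV and 309 ± 4.01 FPKM in controls (SD, n = 3 each), a log2 change of 0.38 (SE 0.20, adjusted p = 0.648), and in recovered reads per 1000000 FAU had 373, 328 and 522 in ESV, against 309, 306 and 312 in controls. RPS27A had 614, 639.6 and 1293 FPKM in ESV xenografts 1, 2 and 3, against 574, 673 and 582 FPKM in controls 1, 2 and 3. ESV xenografts 1 and 2 lay among the controls for RPS27A, and ESV xenograft 3 was 2.12 times the control mean, giving a log2 change of 0.39 (SE 0.30, adjusted p = 0.672).

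RPS27 and RPS27L are paralogs, and RPS27L is known as a p53 target. RPS27 had 1100.2, 1129 and 1999 FPKM in ESV xenografts 1, 2 and 3, against 1048, 1048 and 1269.6 FPKM in controls 1, 2 and 3. RPS27L had 16.4, 19.1 and 19.9 FPKM in ESV xenografts 1, 2 and 3, against 20.2, 13.8 and 14.4 FPKM in controls 1, 2 and 3. The pair differed greatly in level, and only RPS27 had a clear high value in ESV xenograft 3, at 1.78 times the control mean against 1.24 times for RPS27L, where control 1 was highest. RPS27 had a log2 change of 0.28 (SE 0.26, adjusted p = 0.715). RPS27L had a log2 change of 0.20 (SE 0.18, adjusted p = 0.707). RPS27L had 91.4, 98.0 and 115 recovered reads per 1000000 in ESV, against 82.6, 86.8 and 85.8 in controls, so its groups did not overlap on that scale.

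RPS19, the gene most often mutated in Diamond-Blackfan anaemia, had 504, 567 and 1333 FPKM in ESV xenografts 1, 2 and 3, against 460.1, 494 and 588 FPKM in controls 1, 2 and 3. ESV xenograft 3 was 2.59 times the control mean and the other ESV values lay among the controls. RPS24 had 837, 720.5 and 1507 FPKM in ESV xenografts 1, 2 and 3, against 765, 779 and 491 FPKM in controls 1, 2 and 3. Control 3 was its lowest library, and the means were 1021 ± 424 FPKM in ESV and 679 ± 163 FPKM in controls (SD, n = 3 each), a log2 change of 0.54 (SE 0.32, adjusted p = 0.648). RPS7 (ENSG00000171863, chr2:3575205-3580919, plus strand), which also binds MDM2, had 640.2, 615 and 816 FPKM in ESV xenografts 1, 2 and 3, against 591, 564 and 606 FPKM in controls 1, 2 and 3. All ESV values lay above all controls by a narrow margin, giving a log2 change of 0.22 (SE 0.16, adjusted p = 0.661). In recovered reads per 1000000 RPS7 had 570, 551 and 683 in ESV, against 529, 516 and 564 in controls, where ESV xenograft 2 lay below control 3.

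RPS10 (ENSG00000124614, chr6:34417454-34426125, minus strand), a head protein that ZNF598 marks with ubiquitin on stalled ribosomes, had 467, 698 and 1302 FPKM in ESV xenografts 1, 2 and 3, against 112, 83.0 and 799 FPKM in controls 1, 2 and 3. Control 3 lay above ESV xenografts 1 and 2, and controls 1 and 2 lay far below every other library. Means were 822 ± 431 FPKM in ESV and 331 ± 405 FPKM in controls (SD, n = 3 each), a log2 change of 1.94 (SE 0.85, adjusted p = 0.648). Without control 3 the RPS10 change was 2.95, and it did not pass. RPS20, also marked by ZNF598 and mutated in some families with colorectal cancer, had 36.9, 35.6 and 61.7 FPKM in ESV xenografts 1, 2 and 3, against 36.0, 30.2 and 26.8 FPKM in controls 1, 2 and 3. ESV xenograft 3 was the highest, ESV xenograft 2 lay just below control 1, and the log2 change of 0.48 (SE 0.24, adjusted p = 0.648) did not pass.

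RPS29 (ENSG00000213741, chr14:49570984-49599164, minus strand), a small zinc-binding head protein, had the smallest p of the members. It had 294, 313 and 589 FPKM in ESV xenografts 1, 2 and 3, against 218, 218 and 263 FPKM in controls 1, 2 and 3. All ESV values lay above all controls, and ESV xenograft 3 was the highest. Means were 398 ± 165 FPKM in ESV and 233 ± 26.1 FPKM in controls (SD, n = 3 each), a log2 change of 0.70 (SE 0.28, adjusted p = 0.648) with unadjusted p = 0.0396. ESV xenografts 1 and 2 were 1.26 and 1.34 times the control mean. In recovered reads per 1000000 it had 157, 194 and 299 in ESV, against 126, 145 and 160 in controls, where ESV xenograft 1 lay below control 3.

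Of the other members, RPS12, in the beak of the subunit, had 1381, 1168 and 2452 FPKM in ESV xenografts 1, 2 and 3, against 1147, 1264 and 1252 FPKM in controls 1, 2 and 3. RPS21 had 1355, 1131 and 2344 FPKM in ESV xenografts 1, 2 and 3, against 1050.2, 1174 and 1256 FPKM in controls 1, 2 and 3. RPS15A had 423, 355 and 709 FPKM in ESV, against 362, 414 and 381 FPKM in controls. All of RPS12, RPS21 and RPS15A were highest in ESV xenograft 3, at 2.01, 2.02 and 1.84 times the control mean, with ESV xenograft 2 at or below the middle of the controls. RPS25, needed for initiation at several viral internal entry sites, had 240.1, 68.0 and 117 FPKM in ESV xenografts 1, 2 and 3, against 141, 109 and 298 FPKM in controls 1, 2 and 3. ESV xenograft 2 was its lowest library and control 3 its highest, and the log2 change of -0.41 (SE 0.53, adjusted p = 0.779) was the most negative of the members.

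Control values of most members were tight. The median SD of log2 level among the controls was 0.13 over the members and 0.17 over all tested genes. RPS2, RPS3, RPS10, RPS23 and RPS25 exceeded 0.4, with 1.25, 0.43, 1.77, 0.44 and 0.75. Of all 28 members, 18 had ESV xenograft 3 between 1.5 and 2.5 times the control mean, and 25 had the mean of ESV xenografts 1 and 2 between 0.8 and 1.25 times. In ESV xenograft 3, RPS2, RPS10, RPS19 and RPS29 lay above 2.5 times, at 2.53, 3.93, 2.59 and 2.53. RPS3, RPS3A, RPS6, RPS7, RPS25 and RPS27L lay below 1.5 times. Neither count was taken over all tested genes, so neither is shown to be particular to the members. The median fold over the members was 1.14, 0.976 and 1.86 in ESV xenografts 1, 2 and 3.

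**Figure D3:**
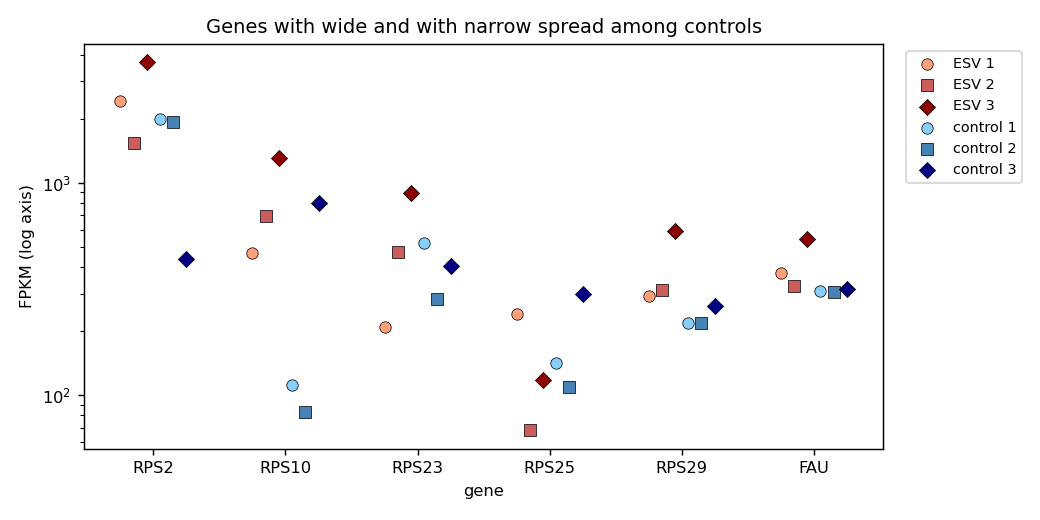
FPKM on a log axis of RPS2, RPS10, RPS23 and RPS25, which varied widely among controls, and of RPS29 and FAU, which did not, with 1 point per library and ESV left of control for each gene. RPS2 in control 3 (436 FPKM) and RPS10 in controls 1 and 2 (112 and 83.0 FPKM) lie far below their other libraries, and the ESV points of RPS29 and FAU lie above all their controls.

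The table lists transcripts, and its values correspond to whole numbers of reads per transcript. The FPKM of a gene therefore depends also on how long the transcript is that was credited with its reads. The transcript with most FPKM differed between libraries in 11 of the 28 members, which were RPSA, RPS2, RPS3, RPS3A, RPS6, RPS7, RPS20, RPS23, RPS25, RPS27A and RPS29. The share of all tested genes with such a difference was not taken, so the count is not shown to be particular to these members. RPS27L kept 1 leading transcript, whose share of the gene moved by over 25 percentage points. The other 16 did neither: the leading transcript held 99.0 to 99.4% of RPS26, 97.5 to 99.0% of RPS27 and 96.7 to 98.4% of FAU.

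The RPS6 transcript was exchanged almost completely. ENST00000315377, of 863 bases, had 1107, 0 and 0 FPKM in ESV, against 882, 993 and 870.4 FPKM in controls. ENST00000380384, of 1355 bases, had 6.67, 569 and 1154 FPKM in ESV, against 10.1, 5.88 and 15.8 FPKM in controls. ESV xenografts 2 and 3 thus had their RPS6 reads on the longer transcript, and ESV xenograft 1 had them on the shorter one like the controls. The low RPS6 FPKM of ESV xenograft 2 stood beside 42614 reads on the longer transcript.

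RPS3A and RPSA were exchanged in ESV xenograft 1, and RPS3A in part also in control 1 and ESV xenograft 3. ENST00000506126 of RPS3A had 4.10, 1.83 and 95.3 FPKM in ESV, against 307, 3.83 and 2.71 FPKM in controls. ENST00000512690 of RPS3A had 426, 0 and 30.9 FPKM in ESV and was at 0 in every control, while the leading ENST00000274065 had 400.1, 773 and 776 FPKM in ESV, against 771, 764 and 806 FPKM in controls. ENST00000443003 of RPSA was listed at 0 in ESV xenograft 1, had 212 and 493 FPKM in ESV xenografts 2 and 3, and had 233, 234 and 277 FPKM in controls. ENST00000458478 of RPSA had 172, 8.08 and 18.0 FPKM in ESV, against 15.8, 10.5 and 9.24 FPKM in controls. Both genes had a summed FPKM in ESV xenograft 1 close to their control values despite the exchange.

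Exchanges also crossed the groups. RPS7 ENST00000304921 had 0.830, 149 and 213 FPKM in ESV, against 1.37, 5.00 and 335 FPKM in controls, so control 3 resembled ESV xenografts 2 and 3. RPS27A ENST00000402285 had 3.06, 66.1 and 678 FPKM in ESV, against 43.2, 49.8 and 41.1 FPKM in controls. The leading RPS27A transcript ENST00000272317 had 299.9, 228 and 288 FPKM in ESV, against 237, 243 and 225 FPKM in controls, so the high RPS27A value of ESV xenograft 3 lay on ENST00000402285. RPS3 ENST00000532872, annotated as a nonsense-mediated decay transcript, was at 0 in every ESV xenograft and had 0, 562 and 36.1 FPKM in controls.

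RPS23, RPS25 and RPS2 varied with the transcript that received reads. RPS23 ENST00000504293, a retained-intron transcript of 576 bases, had 36.3, 312 and 556 FPKM in ESV, against 405, 196 and 234 FPKM in controls. RPS23 ENST00000296674, of 3437 bases, had 158, 95.5 and 146 FPKM in ESV, against 68.6, 55.1 and 118 FPKM in controls. In recovered reads per 1000000 RPS23 had 678, 655 and 1083 in ESV, against 594, 386 and 678 in controls, so the low FPKM of ESV xenograft 1 was not low in reads. RPS25 ENST00000527673 had 157, 23.2 and 32.8 FPKM in ESV, against 90.4, 74.4 and 258 FPKM in controls. RPS2 ENST00000533186 had 774, 0 and 1273 FPKM in ESV, against 516, 369 and 55.7 FPKM in controls. Protein-coding transcripts held 85.6 to 89.9% of the members' FPKM in ESV and 85.9 to 90.3% in controls.

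**Figure D4:**
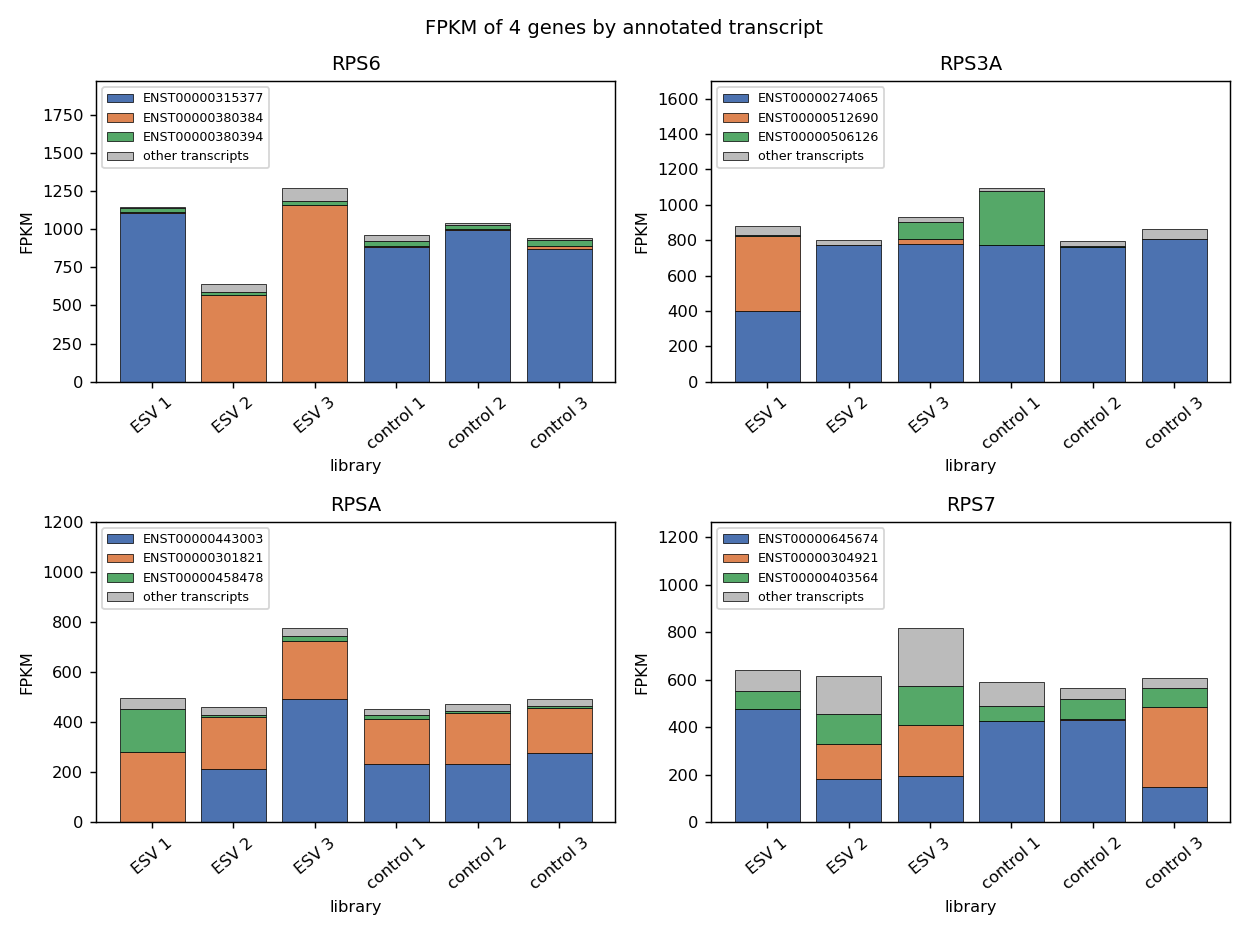
FPKM of RPS6, RPS3A, RPSA and RPS7 in each library, stacked by the 3 annotated transcripts with the highest mean and the rest in grey, with ESV left of control. RPS6 is held by ENST00000380384 in ESV xenografts 2 and 3 and by ENST00000315377 in ESV xenograft 1 and the controls.

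Processed pseudogenes of these genes share their sequence, so reads can be split between them. The 147 pseudogenes named after a member summed to 1062, 859 and 1581 FPKM in ESV, against 912, 936 and 1022 FPKM in controls, and ESV xenograft 3 was again the highest, at 1.65 times the control mean. RPS28P7 alone had 368, 276 and 599.7 FPKM in ESV, against 309.97, 299 and 334 FPKM in controls, which exceeded RPS28 in every library. RPS28P7 in ESV xenograft 2 lay below every control, unlike RPS28. The RPS7 pseudogenes had 166, 147 and 227 FPKM in ESV, against 158, 146 and 175 FPKM in controls, and these overlapped. Pseudogenes averaged 66.6% of the level of RPS20 and 26.6% of RPS7, but 0.388% of RPS29 and 0.466% of FAU. The RPS28 values are therefore uncertain in level. How far the separate groups of RPS28 and RPS7 depend on the splitting of reads was not tested. The RPS2 pseudogenes had 267, 219 and 384 FPKM in ESV, against 221, 252 and 259 FPKM in controls, and control 3 was not low there. Unnamed assembled transcripts with no gene or position, picked after their values were seen, included 1 with 1596 FPKM in control 3 and 0 elsewhere, and another with 888 and 484 FPKM in controls 1 and 2 and at most 0.214 elsewhere. Their part in the RPS2 and RPS10 values was not tested.

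The large subunit proteins were likewise highest in ESV xenograft 3. They summed to 38095, 33161 and 57745 FPKM in ESV, against 33311, 33159 and 35138 FPKM in controls, and ESV xenograft 3 was 1.70 times the control mean. The ratio of small to large subunit sums was 0.577, 0.564 and 0.623 in ESV, against 0.570, 0.590 and 0.543 in controls. Of 51 large subunit genes tested, 48 had a positive change and 3 a negative one, with a median of 0.33, and 0 passed. RPL18, with the smallest p, had 685, 561 and 665 FPKM in ESV, against 199.7, 213 and 469 FPKM in controls, a log2 change of 1.22 (SE 0.33, adjusted p = 0.648).

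Genes that build and use the small subunit had medians nearer 0. Of 55 assembly factors tested, 33 were positive and 22 negative in change. All ESV values lay above all controls for 11 of them, against 7.75% of all tested genes, and below for 3, against 8.69%. Their summed level was 1805, 1682 and 1718 FPKM in ESV, against 1400, 1485 and 1508 FPKM in controls. Every ESV sum of this list thus lay above every control sum. The assembly factors had a median change of 0.05, and their median difference from the control mean was 0.15, 0.07 and -0.03 (log2) in ESV xenografts 1, 2 and 3. TBL3, of the complex that processes the small subunit RNA, had 25.4, 18.7 and 22.5 FPKM in ESV, against 15.1, 10.4 and 9.13 FPKM in controls, a log2 change of 0.91 (SE 0.22, adjusted p = 0.648). Of 30 initiation complex genes, 15 were positive and 15 negative, with a median of -0.0025 and a median difference of -0.04, 0.04 and 0.16 in ESV xenografts 1, 2 and 3. EIF4B, a helicase cofactor, had 136, 112 and 126 FPKM in ESV, against 159, 171 and 175 FPKM in controls, a log2 change of -0.44 (SE 0.12, adjusted p = 0.648).

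Genes with TOP messages outside the ribosome had 15 positive and 8 negative changes among 23 tested, with a median of 0.08 and a median difference of 0.04, -0.09 and 0.49 (log2) in ESV xenografts 1, 2 and 3. Kinases, ubiquitin ligases and other modifiers or sensors of the subunit had 5 positive and 17 negative changes among 22 tested, with a median of -0.16 and a median difference of -0.16, -0.02 and -0.54 in ESV xenografts 1, 2 and 3. In none of these lists did a gene pass the adjusted threshold. In the modifiers and sensors list RICTOR, the defining subunit of mTORC2, had the smallest p, with 2.10, 3.45 and 5.20 FPKM in ESV, against 5.71, 11.7 and 9.17 FPKM in controls, a log2 change of -1.11 (SE 0.34, adjusted p = 0.648). LARP4, an RNA-binding protein, had 11.3, 13.4 and 6.41 FPKM in ESV, against 19.1, 17.8 and 13.6 FPKM in controls, a log2 change of -0.69 (SE 0.28, adjusted p = 0.648). Mitochondrially encoded genes, a library quality measure, had a median difference of 0.10, 0.06 and -0.31 in ESV xenografts 1, 2 and 3, and their part in the member values was not tested.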

How the data were processed

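RNA of 6 HT-29 xenografts, 3 ESV and 3 control, was sequenced from Trizol-extracted total RNA with a SMARTER mRNA-seq kit, per the labels' protocols. The authors deposited 1 table of normalized expression per transcript, with no unit given by name. FPKM was taken as the unit of the deposited values because, multiplied by GENCODE release 29 transcript lengths, 99.64 to 99.70% of values worth 0.5 to 100 reads lay within 0.05 of a whole number. Per the submitters' processing notes the genome build was hg38. Aligner and quantifier: not given in the sources used here. Reads per 1000000 are these recovered reads over those on annotated transcripts. Of the annotated rows, 62 had no length, and 41 symbols joined more than 1 gene identifier.

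FPKM of annotated rows was summed per symbol. Genes with at least 1 FPKM in 3 libraries were tested with limma 3.58.1 (R 4.3.3), with log2(FPKM + 1) as the response, a mean-variance trend, no covariate, two-sided p and Benjamini-Hochberg adjustment over all genes at 0.05. The log scale understates changes of low genes. The fit was tested on simulated data. Tables and figures used Python 3.11.15, pandas 2.3.3, numpy 2.4.6 and matplotlib 3.10.9.

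Values are given in full for the members with the smallest p, the highest and lowest levels, separated groups, and fixed pairs, and at most 2 genes of each other list were named, by smallest p. The members, lists and the rule were chosen with earlier results of these data known. Promoter windows came from RefSeq, build GRCh38.p14, and gene coordinates from the deposited table (hg38, spanning all listed transcripts). Alternatives changed the trend, scaling, filter, pseudocount, replicate block, samples, length trend, transcripts summed and unit. Whether counting used strand information is not given in the sources used here, so values of overlapping genes are uncertain.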

Additional observations from a re-analysis of the deposited data

How the results depend on the processing

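No member passed the threshold in any of 18 alternatives, and the median member change was positive in each. It was 0.10 with quantile normalization, 0.15 with the length trend removed, 0.20 with every library scaled to the same summed FPKM and 0.34 with voom on recovered reads. Scaling to the same sum moved the median of all genes to -0.11. Leaving out each library in turn gave 0.06 (without ESV xenograft 3) to 0.53 (without ESV xenograft 2), and the difference of the summed member FPKM, 6348 FPKM with all libraries, ran from 1147 to 9766 FPKM with those same libraries left out. It was 2524 FPKM with quantile normalization, 3144 FPKM with the length trend removed and 3124 FPKM with the leading transcript only. The scaling to the same sum, the restriction to protein-coding transcripts and the sum in recovered reads were chosen after seeing the data.

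The number of genes past the threshold, 0 of 13448, became 9 with the leading transcript of each gene only, 2 with protein-coding transcripts only and 2 with voom, and ran from 0 to 5 with each library left out, with 5 without ESV xenograft 2 and 1 without ESV xenograft 3. None of these was a member, and the cause was not tested. With the replicate number as a block it was 0. Same-numbered libraries did not deviate together (correlations -0.01, -0.0058 and 0.03). No pairing by number was thus visible, though such correlations cannot show that the samples were unpaired.

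The log2 change of 11 members changed sign in at least 1 alternative, with no call on either side, and the cause was not tested. With quantile normalization it was -0.033 for RPSA, -0.012 for RPS15, -0.0062 for RPS15A and -0.081 for RPS23. With the leading transcript only it was -2.39 for RPSA, -0.23 for RPS7 and -0.51 for RPS23. With the length trend removed it was -0.027 for RPS23 and -0.0034 for RPS27. It was 0.13 for RPS3 with protein-coding transcripts only and 0.35 for RPS6 with voom. With each library left out it ran from -0.24 to 0.18 for RPS3, -0.16 to 0.067 for RPS3A, -0.20 to 0.30 for RPS6, -0.0016 to 0.72 for RPS13, -0.32 to 0.72 for RPS23, -0.89 to 0.017 for RPS25 and -0.0036 to 0.43 for RPS27. Depth does not limit most members, which averaged over 100 FPKM. RPS20 and RPS27L averaged under 100 FPKM.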

Other observations

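Some genes that overlap or adjoin members also differed between libraries. RPS10-NUDT3, a read-through transcript unit that spans RPS10 and its neighbour, had 0.128, 11.1 and 40.7 FPKM in ESV, against 0.0233, 0.203 and 0.156 FPKM in controls. NUDT3, a diphosphoinositol polyphosphate phosphohydrolase gene, had 13.8, 13.0 and 2.02 FPKM in ESV, against 12.2, 14.1 and 12.3 FPKM in controls. ESV xenograft 3, the library highest in RPS10-NUDT3, was the lowest in NUDT3. SNORA64, a small nucleolar RNA inside RPS2, had 44.1, 37.8 and 53.2 FPKM in ESV, against 39.9, 35.5 and 30.7 FPKM in controls, and control 3 was the lowest library in both SNORA64 and RPS2. These genes were chosen because they overlap or adjoin a member, and no separate test was made of them. SNORA6, SNORA62 and SNORD15A, looked up with them, had at most 2.67 FPKM in any library.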
